A study of Mus musculus with 8 samples.

Results

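Small leucine-rich proteoglycans were examined in the molar mesenchyme of mice at PN day 3. The 10 genes were taken by name from a deposited table of 20926 genes, and they were *Aspn*, *Ecm2*, *Ogn*, *Omd*, *Bgn*, *Dcn*, *Fmod*, *Lum*, *Kera* and *Prelp*. Both groups were labelled C57BL/6 molar tissue, although the study's methods describe mice of mixed background and either sex, and the mesenchyme was kept after the epithelium had been taken off. The 4 control libraries came from Ezh2fl/fl mice, and the 4 mutant libraries came from Osr2KI-Cre;Ezh2fl/fl mice, called *Osr2-Cre;Ezh2 fl/fl* or mutant here. Both groups thus carried floxed *Ezh2* alleles, and only mesenchymal cells of mutant libraries are expected to have recombined them. Whether each library came from a separate animal or from a pool is not given in the sources used here, so p-values measure the spread between these libraries only.

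Small leucine-rich proteoglycans are secreted matrix proteins whose curved leucine-rich repeat domain binds collagen fibrils and growth factors. Many carry chondroitin, dermatan or keratan sulfate chains, while asporin has an aspartate-rich stretch and is known for its expression in the periodontal ligament. Ezh2 is the methyltransferase of Polycomb repressive complex 2, which places a repressive mark on histone H3.

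The deposited values are a normalized signal, labelled a normalized count by the submitters with no further unit stated. They are compared here between libraries for the same gene. *Ezh2* itself had values of 55.0, 38.3, 39.6 and 39.0 in controls 1 to 4 and of 35.2, 30.1, 23.2 and 36.0 in mutant libraries 1 to 4. Every mutant library lay below every control, with a log2 fold change of -0.46 (SE 0.16) that missed the threshold after adjustment over all genes (limma, adjusted p = 0.235) and passed it with ameloblast transcripts as a covariate (-0.64, adjusted p = 0.0274). With array weights the log2 fold change was -0.19 (limma, adjusted p = 0.135). A value for the whole gene does not show whether the floxed exons were lost. In bulk tissue such as this, fewer cells of a type and less RNA per cell cannot be told apart.

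Low values were filtered out, and 9 of the 10 genes were kept by a limit set at a value of 1 reached by 4 or more of the 8 libraries, while *Kera* fell short. At an adjusted p under 0.05, 2 of the 9 were upregulated in *Osr2-Cre;Ezh2 fl/fl* molars (*Omd* and *Aspn*) against 1.56% of all 14854 genes tested, and 0 were downregulated against 0.512%. At an unadjusted p under 0.05 the limma test gave 5 higher genes (*Aspn*, *Ecm2*, *Ogn*, *Omd* and *Bgn*) beside 8.27% of all genes, and 1 lower gene (*Prelp*) beside 4.87%. The groups did not overlap for 3 of the 9, all of them higher (*Aspn*, *Ogn* and *Omd*), beside 5.76% of all genes, and 0 were lower without overlap beside 2.77%. Over the 9 genes the log2 fold change had a median of 0.29, beside 0.01 over all genes tested. The *Omd* call held when any 1 library was left out. The *Aspn* call lay at the threshold and was lost without each of the 8 libraries in turn.

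**Figure D1:**
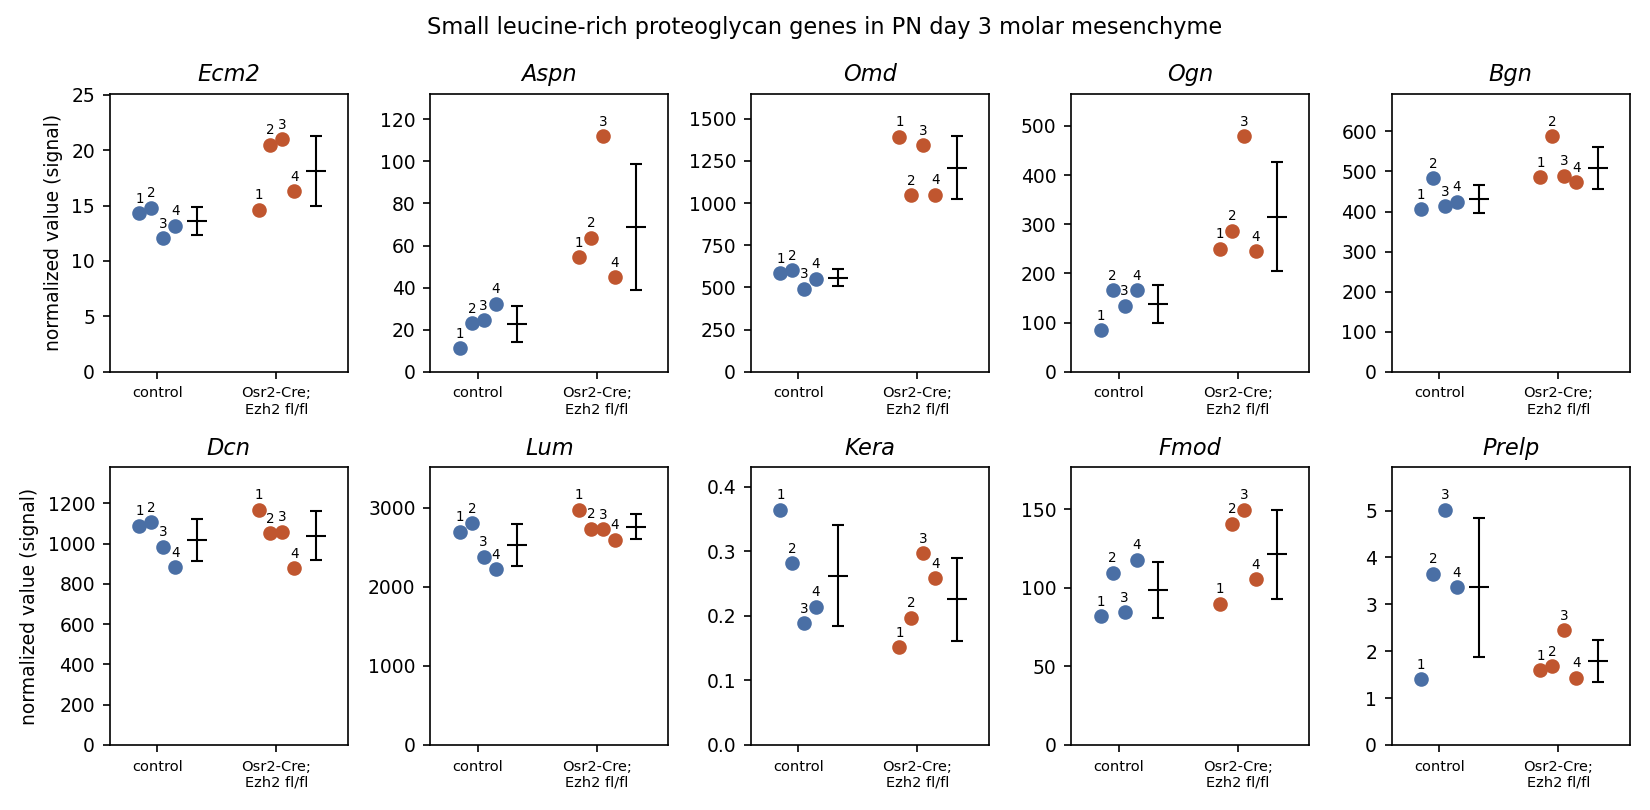
Normalized value (vertical axes, linear, starting at 0) of each of the 10 genes in the 4 control and the 4 *Osr2-Cre;Ezh2 fl/fl* (mutant) libraries, numbered by replicate, with the mean and SD of each group in black. *Aspn*, *Ogn* and *Omd* show every mutant library above every control, while the groups overlap for the other genes.

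*Omd* encodes osteomodulin, a keratan sulfate proteoglycan of mineralized tissue. Its values were 586, 603, 493 and 552 in controls 1 to 4 and 1394, 1046, 1344 and 1048 in mutant libraries 1 to 4. The lowest mutant library was well above the highest control, and the mutant libraries formed a higher pair, 1 and 3, and a lower pair, 2 and 4. The mean rose from 558 ± 48.4 (SD, n = 4) to 1208 ± 187 (SD, n = 4). The log2 fold change was 1.10 (SE 0.12, 95% CI 0.83 to 1.38; limma, adjusted p = 0.00325). The 2-sided exact permutation test gave p = 0.0286, the smallest that 70 arrangements allow.

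*Aspn* encodes asporin, which binds collagen and TGF-beta. Its values were 11.3, 22.9, 24.5 and 32.3 in controls 1 to 4 and 54.6, 63.7, 112 and 45.0 in the mutant libraries. The groups did not overlap, but control 1 was low and mutant library 3 was high within their groups. The log2 fold change was 1.56 (SE 0.33, 95% CI 0.81 to 2.31; limma, adjusted p = 0.0499), the ratio of the means was 3.02, and the exact permutation test gave p = 0.0286. Leaving out 1 library at a time gave log2 fold changes of 1.27 to 1.75 with adjusted p from 0.055 to 0.134, and median-of-ratios scaling gave an adjusted p of 0.0559. The direction was higher under each of the 22 alternative settings, with log2 fold changes from 1.02 with array weights (limma, adjusted p = 0.00504) to 2.02 with ameloblast transcripts as a covariate.

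*Ogn* encodes osteoglycin, also called mimecan, of the same chromosome 13 cluster. Its values were 83.9, 165.9, 134 and 166.0 in controls 1 to 4 and 249.9, 287, 479 and 246 in the mutant libraries. As for *Aspn*, control 1 was the lowest library and mutant library 3 the highest, and the order of the 4 mutant libraries was the same for both genes. The groups did not overlap, yet the log2 fold change of 1.19 (SE 0.26, 95% CI 0.60 to 1.77) missed the threshold by limma with an adjusted p of 0.055, while the exact permutation test gave p = 0.0286.

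*Ecm2*, the 5′ member of the cluster, encodes a matrix protein with leucine-rich repeats. Its values were 14.3, 14.8, 12.1 and 13.2 in controls 1 to 4 and 14.6, 20.5, 21.0 and 16.3 in the mutant libraries. Mutant library 1 lay within the control range and the other 3 mutant libraries above it. The log2 fold change of 0.38 (SE 0.13, 95% CI 0.09 to 0.66) did not pass by limma (adjusted p = 0.213; exact permutation p = 0.0571).

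The 4 genes lie in the same orientation within 119.7 kb of chromosome 13 in the mm10 build. *Ecm2* runs from 49504810 to 49532789, *Aspn* from 49544443 to 49567565, *Omd* from 49582462 to 49592822 and *Ogn* from 49608046 to 49624501, all on the plus strand. All of them lie inside *Cenpp*, a kinetochore gene on the minus strand from 49464023 to 49652785. *Cenpp* exons share 7 bases with those of *Aspn* and 0 with those of *Ecm2*, *Omd* and *Ogn*. Whether counting used the strand is not given in the sources used here, so reads from the shared bases cannot be told apart. *Cenpp* had values of 7.25 to 9.23 in controls and of 7.501 to 10.9 in mutant libraries, with a log2 fold change of 0.08 (limma, adjusted p = 0.895). The flanking genes *Ippk* (log2 fold change 0.26, adjusted p = 0.29), *Nol8* (-0.15, adjusted p = 0.438), *Iars* (-0.13, adjusted p = 0.793) and the pseudogene *Tes3-ps* (0.02, adjusted p = 0.966) did not pass by limma, and *AC123954.1* was below the filter. With array weights *Ippk* had 0.37 and passed (limma, adjusted p = 0.00484), and *Nol8* was lower in every mutant library than in every control. In the main test only *Aspn* and *Omd* passed the adjusted threshold within 100 kb of the cluster.

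**Figure D2:**
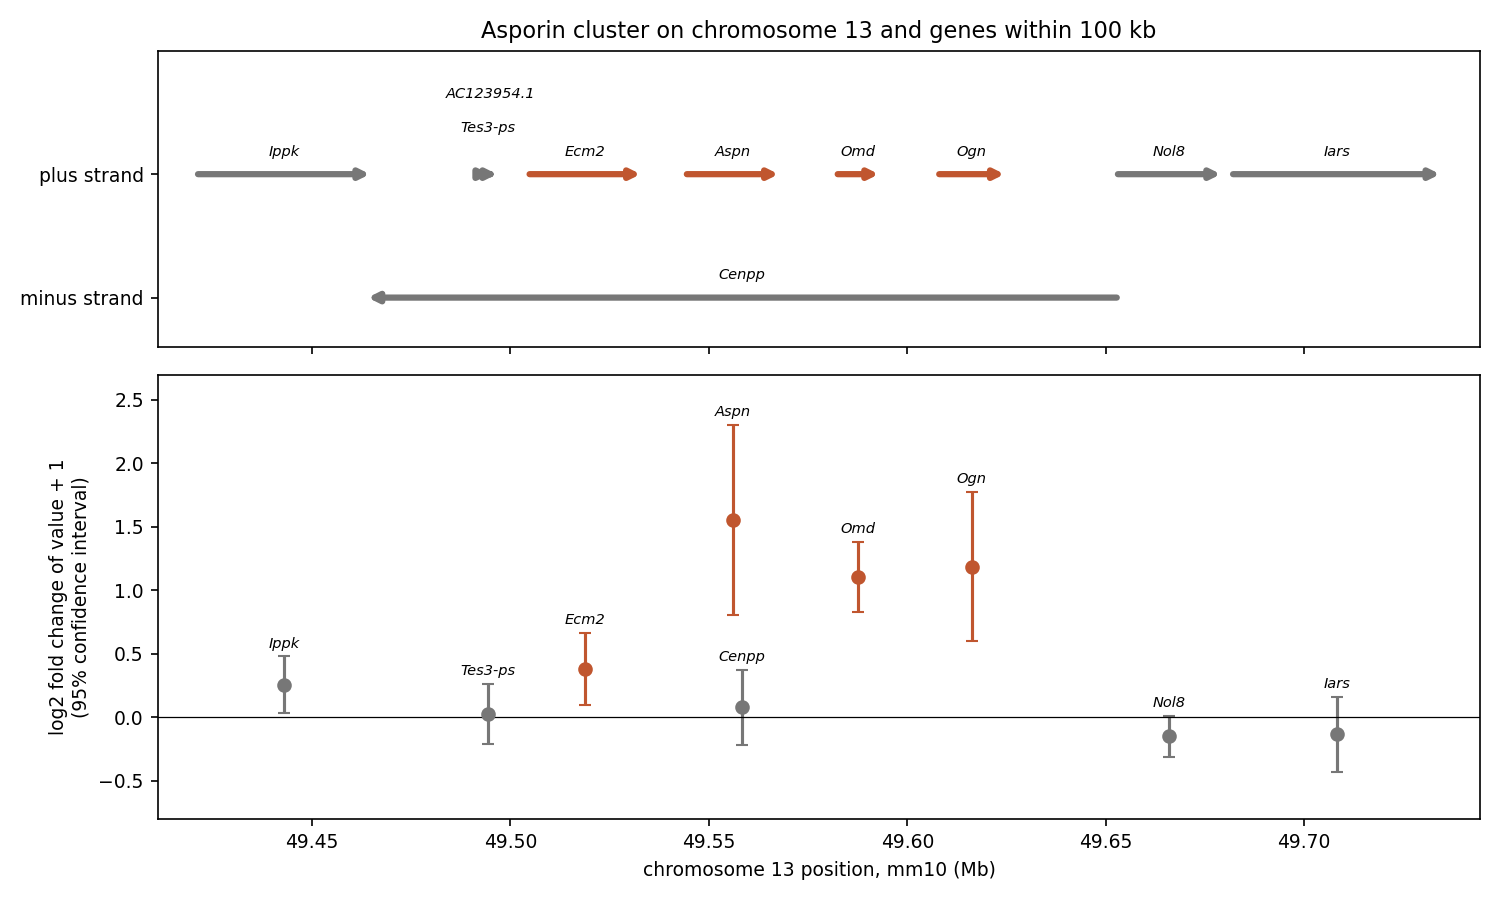
Genes of the asporin cluster and its surroundings on chromosome 13 (top, arrows in the direction of transcription) and their log2 fold change of value + 1 with its 95% confidence interval (bottom; members in orange, other genes in gray). *Aspn*, *Omd* and *Ogn* lie at 1.56, 1.10 and 1.19, and the neighbours that were tested lie between -0.15 and 0.26.

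The promoter table of RefSeq (build GRCm38.p6) matched 8 of the 10 genes, and *Dcn* and *Lum* had no entry. The 250 bases before the RefSeq start of the 4 clustered genes, which for *Ogn* lies 31 bases before the GENCODE start given above, are shown because 3 of these genes lay higher in every mutant library. The letters TATAAA, as in a TATA box, and ACCACA, as in a RUNX core, were searched on both strands, so that TTTATA and TGTGGT count too, and matches are in capitals. The search took letters only, at any place in the window, so a match does not show a working site. TATAAA occurred in 12.4% of all 32851 promoter windows of this length, and here in *Aspn* and *Ogn*, with 2 matches each, which overlap in *Ogn*. They begin 207 and 178 bases before the start in *Aspn* and 229 and 227 in *Ogn*, and the other 6 genes with a window had 0. ACCACA occurred in 14% of all windows, and here in *Ogn* alone, with 1 match that begins 65 bases before the start. CG dinucleotides numbered 3 in *Ecm2*, 2 in *Aspn*, 1 in *Omd* and 4 in *Ogn*, and the median over all windows was 6. Counts as low or lower were found in 37.8%, 29%, 18.8% and 44.4% of all windows, in that order. Outside the cluster, *Bgn* had 7, *Fmod* 2, *Kera* 1 and *Prelp* 5. The windows lie on the plus strand at chr13:49504560-49504809 (*Ecm2*), chr13:49544193-49544442 (*Aspn*), chr13:49582212-49582461 (*Omd*) and chr13:49607765-49608014 (*Ogn*).
Ecm2: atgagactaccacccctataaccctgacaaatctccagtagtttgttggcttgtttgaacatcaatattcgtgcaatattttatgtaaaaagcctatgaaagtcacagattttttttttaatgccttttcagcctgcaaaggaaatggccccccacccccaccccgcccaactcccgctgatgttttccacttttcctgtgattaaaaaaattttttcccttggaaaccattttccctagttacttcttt
Aspn: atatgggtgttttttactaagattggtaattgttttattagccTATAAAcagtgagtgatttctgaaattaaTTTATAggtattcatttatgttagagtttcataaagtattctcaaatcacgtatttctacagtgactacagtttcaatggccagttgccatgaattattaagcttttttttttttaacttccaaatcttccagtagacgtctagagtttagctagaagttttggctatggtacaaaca
Omd: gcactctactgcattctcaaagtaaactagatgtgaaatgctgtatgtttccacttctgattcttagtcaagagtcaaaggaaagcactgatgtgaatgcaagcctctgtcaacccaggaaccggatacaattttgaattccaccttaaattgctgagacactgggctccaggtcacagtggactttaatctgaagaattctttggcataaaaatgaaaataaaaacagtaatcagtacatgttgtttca
Ogn: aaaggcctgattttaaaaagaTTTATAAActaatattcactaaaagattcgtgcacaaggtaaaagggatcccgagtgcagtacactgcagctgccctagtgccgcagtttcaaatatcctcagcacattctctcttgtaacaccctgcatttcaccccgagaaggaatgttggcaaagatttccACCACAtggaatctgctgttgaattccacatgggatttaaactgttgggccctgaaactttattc

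*Bgn* and *Dcn* encode biglycan and decorin, which carry chondroitin or dermatan sulfate and bind collagen type I and TGF-beta. *Bgn*, on the X chromosome, had values of 405, 484, 413 and 425 in controls 1 to 4 and of 486, 588, 489 and 474 in mutant libraries. Control 2 reached into the mutant range, and mutant library 2 was apart from the other 3. The log2 fold change was 0.24 (SE 0.09, 95% CI 0.03 to 0.45; limma, adjusted p = 0.312). *Dcn* had values of 1089, 1107, 985 and 882 in controls and of 1169, 1053, 1060 and 877 in mutant libraries. These ranges lay almost on top of each other, and the 95% CI of the log2 fold change, -0.23 to 0.29, bounds the difference (estimate 0.03; limma, adjusted p = 0.955). *Xist* stood under a value of 1 in 1 library of each group, and with it as a covariate *Bgn* had 0.24 (limma, adjusted p = 0.34). Near *Bgn*, *Haus7* (0.12, adjusted p = 0.664) and *Atp2b3* (-0.18, adjusted p = 0.836) did not pass by limma, and *Zfp92* was below the filter.

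*Lum*, *Fmod*, *Kera* and *Prelp* encode lumican, fibromodulin, keratocan and prolargin, of the class that includes the keratan sulfate proteoglycans. *Lum* ranged from 2224 to 2803 in controls and from 2594 to 2974 in mutant libraries, with a log2 fold change of 0.13 (95% CI -0.13 to 0.39; limma, adjusted p = 0.756). *Fmod*, which regulates collagen fibril assembly, ranged from 82.0 to 118 and from 89.9 to 149.6, with a log2 fold change of 0.29 (95% CI -0.12 to 0.69; limma, adjusted p = 0.594). The groups overlapped for both genes. Leaving out 1 library gave log2 fold changes of 0.07 to 0.18 for *Lum* and 0.18 to 0.42 for *Fmod*. The other alternative settings gave 0.007 to 0.27 for *Lum* and 0.15 to 0.41 for *Fmod*, and neither gene was called under any of them. *Prelp* had values of 1.41, 3.66, 5.02 and 3.36 in controls and of 1.59, 1.68, 2.45 and 1.43 in mutant libraries. Controls 2, 3 and 4 lay above all mutant libraries and control 1 below all of them. Its log2 fold change was -0.58 (SE 0.25; limma, adjusted p = 0.356), and without control 1 it was -0.84 with an adjusted p of 0.0419. An antisense gene, *Gm15851*, shares 350 exonic bases with *Prelp*, and its reads could not be told apart without strand. Among its neighbours and those of *Fmod* on chromosome 1, *Btg2* had -0.45 (limma, adjusted p = 0.164), and *Optc* and *Gm1627* were below the filter. *Kera* ranged from 0.189 to 0.365 in controls and from 0.152 to 0.297 in mutant libraries. That is about 7 to 20 reads a library if the smallest value of each library stands for no read and each further step of that size for 1 read.

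Levels were compared between genes as the value per kb of summed exons, which holds only if the deposited values were not already divided by length. If they were, the values themselves give the order, with *Dcn* (1016) above *Omd* (558) in controls. In controls *Lum* was highest (1032 ± 110.3, SD, n = 4), followed by *Omd* (248), *Dcn* (174), *Bgn* (70.8), *Ogn* (53.6), *Fmod* (29.8), *Aspn* (9.66), *Ecm2* (2.40), *Prelp* (0.93) and *Kera* (0.115). In mutant libraries *Omd* reached 537 per kb and *Aspn* 29.2. *Ogn*, at 123 per kb, changed places with *Bgn*, at 83.4, but their mutant ranges of 95.8 to 187 and 77.7 to 96.4 touched. With the longest annotated transcript as the length *Bgn* stayed above *Ogn* in both groups, at 162 and 191 per kb against 53.6 and 123, and *Dcn* was at 216.5 in controls. That *Bgn* transcript has 1 exon. *Dcn* was taken as 5838 bases, or 4692 in its longest transcript, and *Omd* as 2249, so the place of *Dcn* below *Omd* rests on these lengths.

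Other genes of the family and its pathway were described by counts. Of 8 further family genes, 4 were tested, 1 was upregulated and 1 downregulated at the adjusted threshold. *Epyc*, encoding epiphycan, which lies beside *Kera* on chromosome 10, had values of 5.87, 6.27, 5.41 and 7.98 in controls and of 3.30, 2.47, 3.20 and 2.32 in mutant libraries. The groups were fully apart, and the log2 fold change was -0.95 (SE 0.14; limma, adjusted p = 0.00888), a call that was kept with ameloblast transcripts as a covariate (-0.86, adjusted p = 0.0166) and lost, at a fold change that stayed at -0.95, in the 5 libraries with low ameloblast transcripts described below (adjusted p = 0.17). *Chadl*, encoding a chondroadherin-like protein, ranged from 1.72 to 2.75 in controls and from 3.59 to 6.61 in mutant libraries (log2 fold change 0.82; limma, adjusted p = 0.039), and this call was lost without 7 of the 8 libraries, each left out alone, with adjusted p up to 0.138, and under other settings too, as were those of *Met* and *B3gnt7* below.

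Of 14 collagen genes that these proteins bind or accompany, 1 was upregulated and 0 downregulated (limma; at an unadjusted p under 0.05, 1 and 2). *Col2a1* had a log2 fold change of 1.36 (limma, adjusted p = 0.0235), lost without any of 5 libraries, each left out alone, with adjusted p up to 0.0871, and *Col1a1*, the most abundant, had -0.22 (adjusted p = 0.726). Of 15 growth factor and receptor genes, *Met*, the hepatocyte growth factor receptor, was the only 1 called (1 higher and 3 lower at an unadjusted p under 0.05), with a log2 fold change of -0.44 (limma, adjusted p = 0.041), lost without each of the 8 libraries in turn, with adjusted p of 0.0514 to 0.173. The most abundant gene there, *Bmpr2*, had 0.02 (adjusted p = 0.957). Of 11 protease and enhancer genes 10 were tested and 0 called by limma (2 at an unadjusted p under 0.05), with *Mmp14* at -0.06 and *Pcolce* at 0.11. Of 22 genes of chondroitin and dermatan sulfate assembly 0 were called by limma (1 at an unadjusted p under 0.05), with *Chst11* at -0.12 and *Dsel* at 0.00. Of 8 tested genes of keratan sulfate assembly and tyrosine sulfation, 1 was called: *B3gnt7*, a keratan sulfate chain enzyme, ranged from 3.40 to 4.67 in controls and from 5.57 to 7.07 in mutant libraries (log2 fold change 0.61; limma, adjusted p = 0.0274), a call lost without any of 5 libraries, each left out alone, with adjusted p up to 0.12.

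Markers of other cell types also differed between libraries, and their part in the values above was not tested except where a value is given. Of 7 osteoblast markers 1 was called, *Ibsp*, which rose with a log2 fold change of 1.87 (limma, adjusted p = 0.00126), and the median over the list was 0.03 (2 higher and 0 lower at an unadjusted p under 0.05). *Runx2* was higher in every mutant library than in every control (0.41; limma, adjusted p = 0.0678), *Alpl* had 0.14, and *Bglap* (-0.40), *Bglap2* (-0.37) and *Spp1* (-0.31) pointed lower, none of them called. The list summed to 1222, 1515, 1247 and 1446 in controls 1 to 4 and 2086, 1691, 1710 and 1525 in mutant libraries, with *Alpl* most abundant. Of 6 tested follicle and periodontal ligament markers 1 was called, *Pth1r* (0.49 by limma, adjusted p = 0.0133), and the median was 0.44. At an unadjusted p under 0.05, 3 were higher and 0 lower. *Pth1r* and *Mkx* (0.46) were apart between the groups, while the groups overlapped for *Tnn* (0.88), *Postn* (0.42), *Tnmd* (0.19) and *Bmp3* (-0.30). This list, led by *Postn*, summed to 284, 403, 344 and 418 in controls and 369, 529, 608 and 455 in mutant libraries. The highest sum fell on mutant library 3, where *Aspn* and *Ogn* were highest, and *Postn* alone gave 410 of it. Mutant library 3 also had the highest mutant sum of odontoblast, ameloblast, erythroid, Schwann cell, and macrophage and osteoclast markers. The remaining marker lists peaked in another mutant library. Of 5 tested chondrocyte markers 3 were called (*Acan*, *Col2a1* and *Col9a1*), all higher, and the median was 1.36. The sums, with *Col9a2* most abundant, were 398, 362, 267 and 418 in controls and 491, 879, 620 and 697 in mutant libraries. Of 4 odontoblast markers 0 were called by limma (2 lower at an unadjusted p under 0.05), the median was -0.67, and the sums, with *Dspp* most abundant, were 1945, 2732, 3394 and 2834 in controls and 1157, 1082, 2738 and 1322 in mutant libraries. Of 11 dental mesenchyme markers, *Lhx8* was called (1.17; limma, adjusted p = 0.00509) and the median was 0.02. At an unadjusted p under 0.05, 4 were higher and 0 lower. The higher ones were *Lhx8*, *Prrx1* (0.50), *Twist1* (0.32) and *Msx1* (0.27), with overlapping groups for *Msx1* only. *Msx2* (-0.14), *Barx1* (-0.10), *Dlx1* (-0.20) and *Dlx2* (-0.22) pointed lower without passing that threshold. The sums were 2560, 2613, 2272 and 2307 in controls and 2622, 2084, 2101 and 2040 in mutant libraries, with *Vim* (-0.26) most abundant. No marker was at 0 in any library.

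Ameloblast and epithelial transcripts were present although the epithelium had been removed. The 7 ameloblast markers, with *Amelx* most abundant, summed to 811, 2429, 15830 and 28720 in controls 1 to 4 and to 1351, 871, 11510 and 738 in mutant libraries, so that controls 3 and 4 and mutant library 3 stood apart, and the 6 that were tested had a median log2 fold change of -1.48. The 6 epithelium markers, with *Krt5* most abundant, summed to 2033, 2549, 3635 and 4515 in controls and to 2715, 1923, 2569 and 2034 in mutant libraries, with a median of -0.43. Each of these 2 lists had 0 genes called by limma and 2 lower at an unadjusted p under 0.05. With ameloblast transcripts as a covariate (log2 values of *Enam*, *Ambn* and *Amelx*, averaged), *Aspn* had a log2 fold change of 2.02 (limma, adjusted p = 0.000906), *Ogn* 1.499 (adjusted p = 0.00579) and *Omd* 1.12 (adjusted p = 0.00628), so 3 of the 9 were called higher beside 1.45% of all genes tested, and 0 lower beside 0.579%. *Prelp* had -0.30 there (adjusted p = 0.513). In the 5 libraries with low ameloblast transcripts, a setting chosen after seeing the data, *Aspn* had 1.68 (adjusted p = 0.183), *Ogn* 1.13 (adjusted p = 0.296) and *Omd* 0.95 (adjusted p = 0.174), so that 0 of the 9 genes were called by limma (3 higher at an unadjusted p under 0.05, beside 4.08% of all genes tested) with 2 controls and 3 mutant libraries. Of all genes tested, 8 were called in that setting. Endothelium, erythroid, macrophage and osteoclast, skeletal muscle and Schwann cell markers had 0 genes called by limma, and at an unadjusted p under 0.05 only endothelium had any, 3 lower.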

How the data were processed

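RNA from PN day 3 molar mesenchyme was sequenced in 4 control and 4 *Osr2-Cre;Ezh2 fl/fl* libraries. The authors deposited a table of normalized signal values per gene, on mm10. The submitters' processing notes name CASAVA, STAR and Partek, whereas the study's methods name TopHat and RPKM, so which steps gave these values is uncertain. Those methods give the labels' 4 per group for collected samples and another number of sequenced pairs, and the labels were followed. The upper quartile was 38.5 in every library. If the smallest value of a library stands for no read and each further step of that size for 1 read, libraries held 48313044 to 68793592 reads. But only 62.5% of values under 20 such steps were whole within 0.02, so no count test was run.

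Values were tested as log2(value + 1), which understates changes of low genes, with limma 3.58.1 in R 4.3.3 (trend, Benjamini-Hochberg over 14854 genes reaching a value of 1 in 4 or more libraries), and with a 2-sided exact permutation test. The limma step was tested on simulated data, with the same setting of spread for every gene and no differences in cell content between libraries. That test therefore does not show how such differences affect the calls here. Lengths and overlaps came from GENCODE. The members, lists and marker genes were chosen with earlier results of these data known. Genes were named if they were members, *Ezh2* or within 100 kb of a member. In family and pathway lists, the called or most abundant genes were named too. There the rule allowed 2 to 6 genes a list, and lists with fewer than 2 called genes were filled to 2. That number was lowered from 4 after values under the alternatives had been seen. The marker lists did not follow this rule, so some uncalled markers were named and some lists name no gene. Alternatives covered scaling, pseudocount, filter, variance model, weights, block, covariates and libraries left out. The 5-library setting and both promoter motifs were chosen after seeing the data.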

Additional observations from a re-analysis of the deposited data

Results flagged for a closer look

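In 70 groups of 4 libraries, 6 had a library set far apart from the others on the log2(value + 1) scale, where chance gives about 1 in 20. The gap to the nearest library, as a share of the whole range, is given for each. *Bgn* was highest in mutant library 2 (value 588, share 0.853). *Ezh2* was highest in control 1 (value 55.0, share 0.909). *Chst11* was lowest in mutant library 3 (value 111, share 0.92), and *B4galt1* lowest in control 1 (value 123, share 0.836). *Zfp92*, a neighbour of *Bgn*, was lowest in mutant library 2 (value 0.546, share 0.842). *Optc*, beside *Prelp*, was highest in control 4 (value 0.765, share 0.855). *Zfp92* and *Optc* were below the filter.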

How the results depend on the processing

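*Omd* kept its direction under all 22 alternatives and its call under 21, with log2 fold changes of 0.95 to 1.17. It lost the call in the 5 libraries with low ameloblast transcripts (0.95), a setting chosen after seeing the data. *Aspn* was higher under all 22, at 1.02 (array weights) to 2.02 (ameloblast covariate), and called under 3. Its log2 fold change, no longer past the threshold, was 1.53 with median-of-ratios scaling, 1.54 with quantile normalization, 1.599 and 1.604 with pseudocounts of 0.1 and 0.01, 1.56 without the filter, with a filter at 10, without the trend and with robust moderation, 1.54 with the *Xist* covariate, 1.68 in the 5 libraries and 1.27 to 1.75 with 1 library left out, at adjusted p of 0.0523 to 0.183. Loss of *Aspn* takes the count of higher members at the adjusted threshold from 2 to 1 with median-of-ratios scaling, quantile normalization, either smaller pseudocount, no filter, a filter at 10, no trend, robust moderation, the *Xist* covariate and any library left out (1 to 1). The count was 0 in the 5 libraries, where *Omd* was lost too, and 4 with array weights, where 14.6% of all genes were called higher. The cause was not tested, apart from the fewer libraries or genes that some settings hold.

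Array weights put *Ecm2* (0.29), *Ogn* (0.83) and *Prelp* (-0.94) past the threshold, so 1 member was lower there, and also *Ippk* (0.37), *Haus7* (0.22) and *Btg2* (-0.44), and the ameloblast covariate did so for *Ogn* (1.499). Without 1 library in turn, the count of lower members was 0 to 1 and *Prelp* ranged from -0.84 to -0.40. At an unadjusted p under 0.05 the count of lower members, 1, became 0 with pseudocounts of 0.1 and 0.01, a filter at 10, the ameloblast and *Xist* covariates and the 5 libraries, 2 with array weights (*Prelp* and *Dcn*, beside 18.7% of all genes) and 0 to 1 with a library left out. The count of higher members, 5 beside 8.27% of all genes, became 3 in the 5 libraries (4.08%) and 4 to 6 with a library left out (5.45% to 9.4%). It became 4 with median-of-ratios scaling (7.07%) and with array weights (22.0%), where *Bgn* was lost. With the ameloblast covariate the 5 held *Fmod* in place of *Bgn*.

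Over all genes, 232 higher and 76 lower at the adjusted threshold became 88 and 31 with a filter at 10, 2165 and 1875 (14.6% and 12.6% of genes tested) with array weights, 8 and 0 in the 5 libraries (unadjusted, 606 and 446), and 108 to 332 and 21 to 97 with a library left out. At an unadjusted p under 0.05, 1229 higher and 724 lower became 673 and 481 with a filter at 10, 3272 and 2773 with array weights, and 810 to 1397 and 467 to 951 with a library left out. Among the calls, 75.3% were higher, and 53.6% with array weights.

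The replicate block left 1 higher member, *Omd* (1.10, adjusted p = 0.0317), with *Aspn* at 1.56 (adjusted p = 0.0731), and 64 higher and 9 lower genes. *Epyc* (adjusted p = 0.0731), *Chadl* (0.0856), *Met* (0.243) and *B3gnt7* (0.105) lost their calls at unchanged log2 fold changes. Deviations of same-numbered libraries correlated at -0.34, -0.08, 0.22 and -0.43. They were not set against those of differently numbered libraries, so these values cannot decide whether the numbers pair the libraries.

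Calls of *Chadl*, *Met*, *B3gnt7*, *Col2a1* and *Epyc* were lost in the 5 libraries (limma, adjusted p = 0.398, 0.438, 0.236, 0.414 and 0.17) at log2 fold changes of 0.80, -0.38, 0.55, 1.24 and -0.95, beside 0.82, -0.44, 0.61, 1.36 and -0.95 in the main test. With quantile normalization *Chadl* (0.77, adjusted p = 0.0716) and *B3gnt7* (0.56, adjusted p = 0.054) were no longer called by limma. With the ameloblast and *Xist* covariates *Chadl* (0.76 and 0.81, adjusted p = 0.0812 and 0.0584) and *Met* (-0.45 and -0.44, adjusted p = 0.0593 and 0.0631) were not called by limma, nor was *Met*, at -0.44, without the filter (adjusted p = 0.0626) and with a filter at 10 (adjusted p = 0.0651).

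Values near 0 changed sign without passing the adjusted threshold. *Dcn* was -0.19 with array weights (limma, unadjusted p = 0.0392), -0.012 with the ameloblast covariate, -0.098 in the 5 libraries and -0.034 to 0.11 with a library left out. *Bmpr2* was -0.003436 with median-of-ratios scaling, -0.067 with array weights, -0.049 in the 5 libraries and -0.036 to 0.056 with a library left out. *Dsel* was 0.001921 with quantile normalization, 0.021 with array weights, 0.0001511 with the *Xist* covariate and -0.040 to 0.034 with a library left out. *B4galt1* was -0.004571 with median-of-ratios scaling, -0.004815 with array weights and -0.012 to 0.062 with a library left out. *Tes3-ps* was -0.039 with quantile normalization, -0.007777 with the ameloblast covariate, -0.071 in the 5 libraries and -0.037 to 0.066 with a library left out. *Iars* was 0.001261 in the 5 libraries and -0.23 to 0.0002655 with a library left out. With the ameloblast covariate *Pcolce* was -0.041 and *Cenpp* -0.020. With the longest transcript as length, *Bgn* stood at 162 per kb in controls and 191 in mutant libraries, and *Dcn* at 216.5 and 222. The exact permutation tests stayed on their side of the threshold on linear values, and *Kera* was -0.04 (adjusted p = 0.873) without the filter. *Kera* and *Prelp* stood at 7 to 20 and 80 to 291 estimated reads a library.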
